A study of Mus musculus with 16 samples.

Results

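Platelet-derived growth factors and genes of the mural cells that wrap small vessels were followed in mouse colorectal tumours. The 9 genes were taken by name from the deposited count table of 54532 genes: the ligand genes Pdgfa, Pdgfb, Pdgfc and Pdgfd, the receptor genes Pdgfra and Pdgfrb, and the pericyte-associated genes Rgs5, Cspg4 and Mcam. All 9 were among the 18777 genes with enough counts to be tested.

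PDGF ligands are secreted dimers that bind receptor tyrosine kinases on neighbouring cells. In growing vessels, endothelial cells release PDGF-B, which draws in and maintains pericytes and smooth muscle cells carrying the receptor PDGFRB, while PDGFRA is carried mainly by fibroblasts and other mesenchymal cells. Pericytes are usually recognised by several transcripts together, since PDGFRB, CSPG4 (also called NG2), RGS5 and MCAM are each found in other cells too.

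The tumours came from MC38, a colon carcinoma line of C57BL/6 mice, placed orthotopically in the descending colon, either as a line with microsatellite instability (MSI) or as one with chromosomal instability (CIN). The mice also received dendritic cells grown from bone marrow and loaded for 30 minutes, by the lipid reagent Lipofectamine, with 2 µg of either free cytosolic DNA or micronuclei of MSI or CIN origin. These cells went intraperitoneally into the mice on days 1, 6 and 12, and day 15 was the day of tumour collection. RNA of whole tumours was poly-A selected and sequenced as 16 libraries, after RNA of 3 biological replicates had been combined in equal amounts.

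There were 4 groups of MSI tumours, from mice whose dendritic cells had received MSI free DNA, MSI micronuclei, CIN free DNA or CIN micronuclei, and 4 groups of CIN tumours with the same kinds of DNA, each of 2 libraries. Every mouse thus carried an MC38 tumour and received transfected dendritic cells, and mice without DNA-loaded dendritic cells were not analysed here. Each tumour type was 1 line, so tumour type and line cannot be told apart. The labels do not say if every library had its own RNA pool, so p-values reflect variation among libraries, some of it perhaps technical. In bulk RNA, fewer cells of a type and less RNA per cell cannot be told apart, and which cells carried a transcript was not measured.

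Totals ran from 11561955 to 17937501 counts per library. The labelled colorectal tissue was checked with 14 colon epithelium genes, none of which was at 0 in all libraries of a tumour type: their summed level was 534 to 11642 CPM (counts scaled to library size) in MSI tumours and 139 to 8508 CPM in CIN tumours. The number 2 libraries of the MSI tumours held more colon epithelium and smooth muscle transcripts than the number 1 libraries. In addition, 5 libraries, 1 of an MSI tumour and 4 of CIN tumours, were rich in skeletal muscle transcripts (mean log2 CPM of the list above 2). The MSI tumour library was number 1 with CIN micronuclei. Those of CIN tumours were both libraries with MSI micronuclei, number 2 with MSI free DNA and number 2 with CIN free DNA. Their values are given beside the results they touch.

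Within a tumour type, levels of different genes were compared as FPKM, which takes gene length into account. In MSI tumours the order of mean FPKM was Pdgfa (28.0), Mcam (16.01), Rgs5 (11.5), Pdgfrb (10.5), Cspg4 (8.05), Pdgfra (6.18), Pdgfb (5.18), Pdgfc (4.10) and Pdgfd (1.86). Only Pdgfa stood apart there from the next gene beyond their standard deviations, and the standard deviations of each other pair of neighbours overlapped. Within single libraries, however, Mcam lay above Rgs5 and Pdgfrb above Cspg4 in all 8 of these tumours' libraries. In CIN tumours the order of mean FPKM was Pdgfa (33.1), Cspg4 (22.7), Pdgfrb (21.5), Mcam (9.93), Rgs5 (8.58), Pdgfra (7.06), Pdgfb (6.57), Pdgfc (5.15) and Pdgfd (0.855). Cspg4 and Pdgfrb thus ranked directly after Pdgfa in CIN tumours, overlapping each other and standing apart from Mcam below them. Of the lower neighbours there, Pdgfb stood apart from Pdgfc and Pdgfc from Pdgfd, and the others overlapped.

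**Figure D1:**
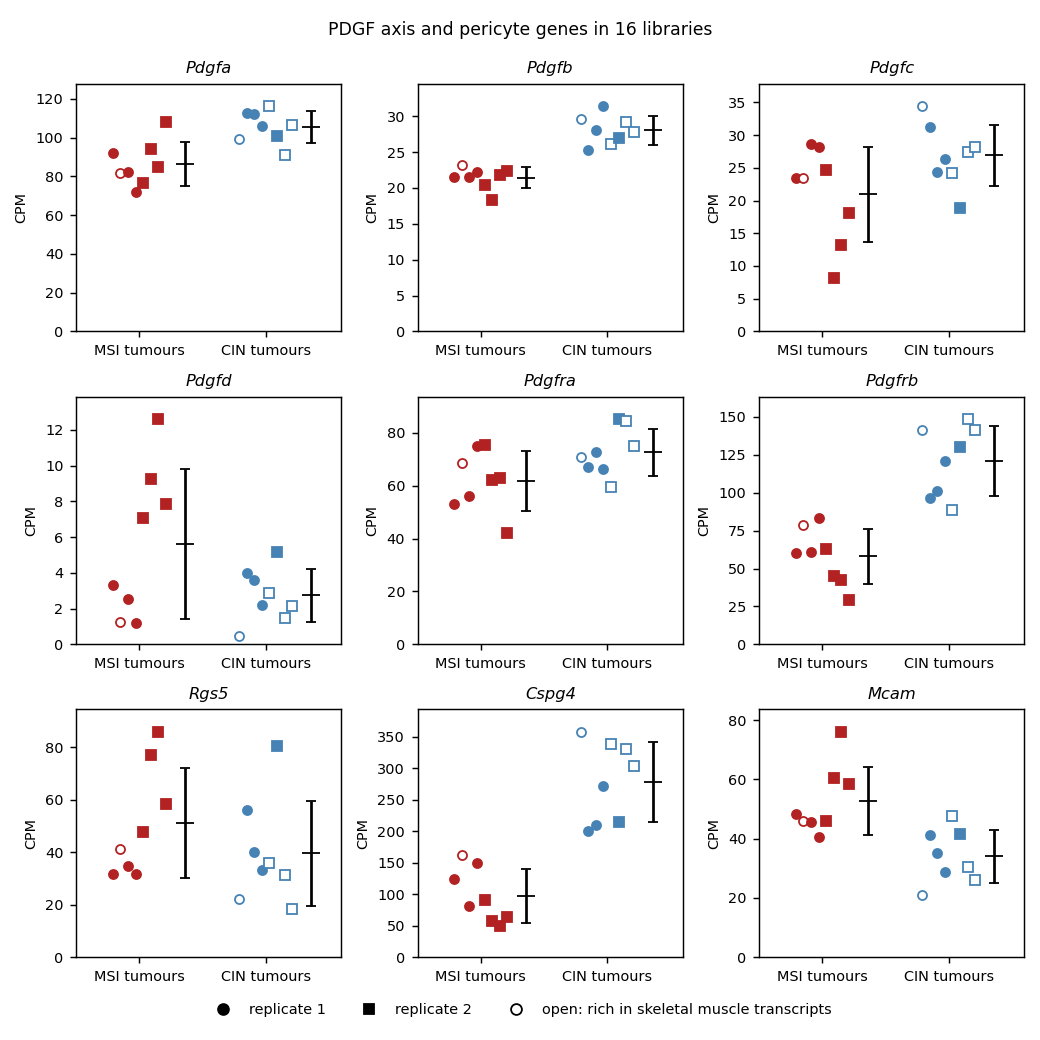
CPM of each of the 9 genes in every library, MSI tumours left of CIN tumours, with mean ± SD bars; circles are number 1 libraries, squares number 2 libraries, and open symbols the 5 libraries rich in skeletal muscle transcripts. All 8 MSI tumour libraries lie below all 8 CIN tumour libraries for Pdgfb, Pdgfrb and Cspg4, and the tumour types overlap for the other 6 genes.

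The first comparison set MSI tumours against CIN tumours over the 4 kinds of DNA, with 8 libraries on each side. Pdgfb, its receptor gene Pdgfrb and the pericyte proteoglycan gene Cspg4 fell in MSI tumours, while Rgs5 and Mcam, which are used to mark the same cells, did not pass the test and had positive fold changes. By edgeR's quasi-likelihood test with Benjamini-Hochberg adjustment over all genes tested, 3 of the 9 genes were called, all lower, against 5.8% of all genes called in either direction with 3.48% called lower and 2.32% higher. DESeq2 called 4 of the 9, the same 3 and Mcam, against 12.2% of all genes. Of the 9 fold changes 3 were positive, against 55.7% of all genes, and the median log2 fold change of the 9 was -0.29, against 0.06 for all genes tested. For 3 of the 9 the libraries of MSI and CIN tumours did not overlap, all with MSI tumours below, against 3.11% of all genes, 1.88% with MSI tumours below and 1.23% above.

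Among the ligands, Pdgfb (chr15:79995874-80014977, minus strand, GRCm38) encodes the chain by which endothelial cells recruit mural cells. Its level was 18.3 CPM in the lowest MSI tumour library, 21.7 at the median and 23.2 in the highest, against 25.3, 28.0 and 31.4 CPM in CIN tumours. The groups did not overlap, although the difference was small. Mean levels were 21.4 ± 1.49 CPM in MSI tumours and 28.0 ± 2.00 CPM in CIN tumours (SD, n = 8 each), and the log2 fold change was -0.39 ± 0.08 (SE, edgeR adjusted p = 0.0218). The call rested on the full set of libraries: it was lost, with adjusted p of 0.0523 to 0.0805, on leaving out any 1 of 10 libraries, namely number 2 of each of the 4 MSI tumour groups, number 1 of the MSI tumours with MSI micronuclei, number 1 of the CIN tumours with MSI micronuclei, CIN micronuclei or CIN free DNA, and number 2 of the CIN tumours with CIN micronuclei or MSI free DNA.

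Pdgfa (chr5:138976014-138997370, minus strand) encodes the ligand chain that acts mainly through PDGFRA. It ranged over 72.0, 83.5 and 108 CPM (lowest, median, highest) in MSI tumours and over 91.0, 106 and 116 CPM in CIN tumours. The groups overlapped, with 5 of 8 MSI tumour libraries below every CIN tumour library, and the fold change did not pass (log2 -0.29 ± 0.10, edgeR adjusted p = 0.123). Of the exon bases of Pdgfa, 26.1% lie under exons of 6330403L08Rik on the opposite strand, so its counts may include reads of that gene.

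Pdgfc (chr3:81036416-81214040, plus strand) encodes a ligand made as a latent precursor with an added CUB domain. Its level was 8.11, 23.5 and 28.6 CPM in MSI tumours and 18.9, 26.9 and 34.4 CPM in CIN tumours. The groups overlapped and the log2 fold change was -0.37 ± 0.24 (edgeR adjusted p = 0.379). Within MSI tumours the number 2 libraries held 8.11 to 24.7 CPM and the number 1 libraries 23.5 to 28.6 CPM.

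Pdgfd (chr9:6168584-6378850, plus strand), the other CUB-domain ligand, which signals chiefly through PDGFRB, varied most of the 9 genes, 28.5-fold between the lowest and the highest library. It was at 1.16, 5.18 and 12.6 CPM in MSI tumours and at 0.442, 2.53 and 5.16 CPM in CIN tumours. In the MSI tumours the number 2 libraries held 7.06 to 12.6 CPM and the number 1 libraries 1.16 to 3.29 CPM. The log2 fold change between tumour types was 1.11 ± 0.58, which did not pass (edgeR adjusted p = 0.292).

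Of the receptors, Pdgfrb (chr18:61045150-61085061, plus strand) showed the clear difference. Its level was 29.2, 60.7 and 83.1 CPM in MSI tumours, against 88.9, 125 and 149 CPM in CIN tumours. Every MSI tumour library lay below every CIN tumour library. Means were 58.0 ± 18.3 CPM in MSI tumours and 121 ± 23.0 CPM in CIN tumours (SD, n = 8 each), a log2 fold change of -1.06 ± 0.23 (edgeR adjusted p = 0.0225). The call was lost, with adjusted p of 0.0551 to 0.0749, on leaving out either library of the MSI tumours with MSI micronuclei, number 2 of the MSI tumours with MSI free DNA, or number 2 of the CIN tumours with CIN micronuclei, MSI free DNA or CIN free DNA, and the fold change then stayed between -1.06 and -0.98.

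Pdgfra (chr5:75152292-75198215, plus strand) was closer between tumour types, at 42.0, 62.4 and 75.3 CPM in MSI tumours and 59.3, 71.8 and 85.2 CPM in CIN tumours. The groups overlapped, with a log2 fold change of -0.23 ± 0.13 (edgeR adjusted p = 0.330) and a 95% interval of -0.52 to 0.06. The interval of Pdgfrb, -1.57 to -0.56, lay wholly below that range, but the difference between the 2 receptors' changes was not itself tested.

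Among the pericyte-associated genes, Cspg4 (chr9:56865033-56899870, plus strand), whose product is a membrane proteoglycan of pericytes and of some tumour and glial precursor cells, differed most. It was at 50.1, 86.1 and 162 CPM in MSI tumours, against 201, 288 and 358 CPM in CIN tumours. The groups did not overlap, and the mean of 97.5 ± 43.1 CPM in MSI tumours was 2.86-fold lower than that of 279 ± 63.4 CPM in CIN tumours (SD, n = 8 each). The log2 fold change was -1.52 ± 0.25 (edgeR adjusted p = 0.00663), and the call held on leaving out each of the 16 libraries in turn, with fold changes of -1.75 to -1.37.

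Cspg4 also varied with skeletal muscle transcripts. In CIN tumours it was at 304 to 358 CPM in the 4 libraries rich in them and at 201 to 272 CPM in the other 4, and in MSI tumours the 1 rich library had the highest value, 162 CPM, against 50.1 to 150 CPM in the other 7. Rgs5 and Pdgfd lay the other way in CIN tumours, where Rgs5 was at 18.4 to 35.7 CPM in the rich libraries and 33.3 to 80.4 CPM in the others, and Pdgfd at 0.442 to 2.87 CPM in the rich libraries and 2.19 to 5.16 CPM in the others. Among the 11 libraries that were not rich, Pdgfrb was at 29.2 to 83.1 CPM in MSI tumours and 96.3 to 130 CPM in CIN tumours. Pdgfb was at 18.3 to 22.3 CPM in MSI tumours and 25.3 to 31.4 CPM in CIN tumours there. The tumour types could not overlap for these genes or Cspg4, since they did not over all libraries. The lack of overlap is thus no test of muscle content. An additive model on those 11 libraries gave log2 fold changes of -1.34 for Cspg4, -1.04 for Pdgfrb and -0.42 for Pdgfb, none past the threshold (edgeR adjusted p = 0.112, 0.128 and 0.110), with 135 genes called in all.

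Rgs5 (chr1:169655501-169695813, plus strand), a regulator of G-protein signalling that is abundant in pericytes, did not follow Cspg4 and Pdgfrb. Its level was 31.6, 44.6 and 85.9 CPM in MSI tumours and 18.4, 34.5 and 80.4 CPM in CIN tumours. The ranges overlapped widely, and the log2 fold change was 0.45 ± 0.25 (edgeR adjusted p = 0.315). Within MSI tumours the number 2 libraries held 47.8 to 85.9 CPM and the number 1 libraries 31.6 to 41.3 CPM, without overlap, whereas Cspg4 averaged less in the number 2 libraries, 65.4 ± 17.9 CPM, than in the number 1 libraries, 129 ± 35.8 CPM (SD, n = 4 each), with overlapping ranges.

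Mcam (chr9:44134469-44142727, plus strand) encodes an adhesion molecule of endothelium, pericytes and smooth muscle. It was at 40.6, 47.3 and 76.1 CPM in MSI tumours and at 20.9, 32.9 and 47.5 CPM in CIN tumours, overlapping, with 4 of 8 MSI tumour libraries above every CIN tumour library. Its log2 fold change was 0.64 ± 0.18, which missed the threshold in edgeR (adjusted p = 0.0618) and passed it in DESeq2 (adjusted p = 0.0228).

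The stretches just before the annotated starts of Cspg4 and Rgs5 are shown because the means of these 2 mural genes lay in opposite order between the number 1 and number 2 libraries of the MSI tumours. They are from RefSeq, build GRCm38.p6, plus strand, chr9:56864854-56865032 for Cspg4 and chr1:169655251-169655500 for Rgs5, and capitals mark matches of the GC box GGGCGG or its reverse complement CCGCCC.
Cspg4: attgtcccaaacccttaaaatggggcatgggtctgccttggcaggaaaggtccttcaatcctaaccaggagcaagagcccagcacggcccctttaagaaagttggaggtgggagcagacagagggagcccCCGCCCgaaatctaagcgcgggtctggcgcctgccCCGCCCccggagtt
Rgs5: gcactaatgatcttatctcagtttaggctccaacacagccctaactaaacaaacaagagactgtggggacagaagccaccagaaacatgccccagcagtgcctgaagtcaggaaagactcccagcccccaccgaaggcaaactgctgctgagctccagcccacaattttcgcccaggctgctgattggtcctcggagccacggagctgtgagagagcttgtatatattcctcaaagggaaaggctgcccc
The 179 bases of Cspg4, of which 60.3% are G or C, hold 2 GC boxes on the reverse strand, a motif present in 20.9% of windows of that length over 32851 promoters. The 250 bases of Rgs5 hold none of the GC box, the TATA box TATAAA, the CArG box bound by serum response factor and the Ets core CCGGAAG, searched on both strands and present in 32.7%, 12.4%, 1.47% and 6.91% of such windows. A match of letters is a description only.

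**Figure D2:**
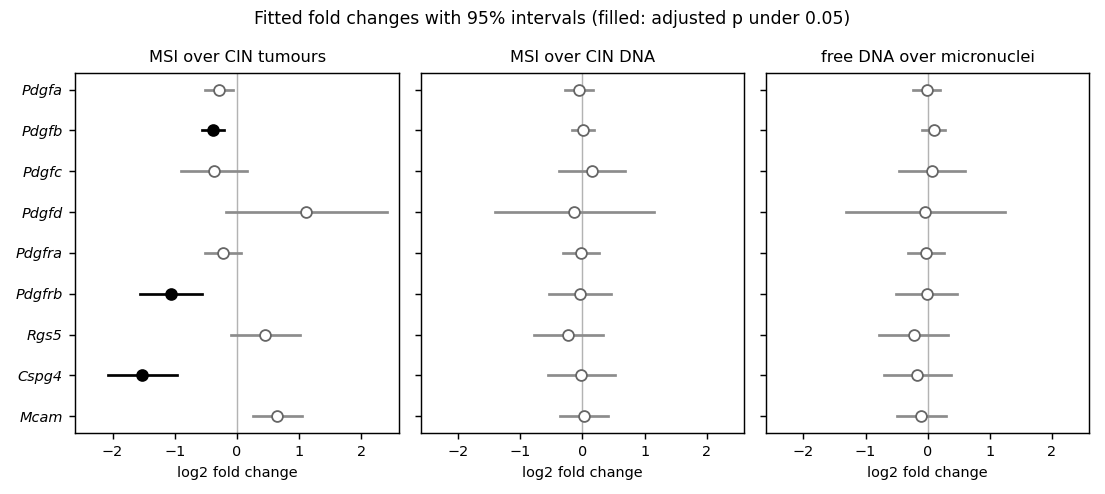
Log2 fold changes of the 9 genes with 95% intervals from edgeR for MSI over CIN tumours, MSI over CIN DNA and free DNA over micronuclei; filled points have an adjusted p under 0.05. Pdgfb, Pdgfrb and Cspg4 are filled in the tumour comparison, and no gene is filled in the DNA comparisons.

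The direction of the differences between tumour types was mostly shared over the kinds of DNA given, while their size varied. With MSI free DNA Cspg4 averaged 65.6 CPM in MSI tumours and 270 CPM in CIN tumours. With CIN micronuclei it averaged 110 CPM in MSI tumours and 208 CPM in CIN tumours. In all 4 matched pairs of group means, with the same DNA source and form, Pdgfa, Pdgfb, Pdgfc, Pdgfra, Pdgfrb and Cspg4 were lower and Pdgfd and Mcam higher in MSI tumours, and Rgs5 was higher in 3 of 4. For Pdgfb, Pdgfrb and Cspg4 the direction in these pairs was already fixed by the lack of overlap over all libraries. For the same reason the ranges of Cspg4 within each replicate number could not overlap. For number 1 they were 81.1 to 162 CPM in MSI tumours and 201 to 358 CPM in CIN tumours. For number 2 they were 50.1 to 91.1 CPM in MSI tumours and 215 to 339 CPM in CIN tumours. The same held for Pdgfrb, at 60.5 to 83.1 CPM in MSI tumours and 96.3 to 141 CPM in CIN tumours for number 1, and 29.2 to 63.0 CPM in MSI tumours and 88.9 to 149 CPM in CIN tumours for number 2.

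Pericyte coverage is commonly read against the endothelium, so Pdgfrb, Cspg4 and Rgs5 were each set against Pecam1, an endothelial adhesion molecule, within the same library. Pecam1 itself rose in MSI tumours, at 42.5 ± 6.96 CPM, against 26.8 ± 7.16 CPM in CIN tumours (SD, n = 8 each; log2 fold change 0.69 ± 0.13, edgeR adjusted p = 0.0134). The ratio, as the difference of log2(CPM + 1), was 0.39 ± 0.34 for Pdgfrb in MSI tumours and 2.15 ± 0.41 in CIN tumours (SD, n = 8 each), 3.40-fold lower in MSI tumours. For Cspg4 it was 1.08 ± 0.58 in MSI tumours and 3.34 ± 0.63 in CIN tumours (SD, n = 8 each), 4.80-fold lower in MSI tumours. In both ratios all 8 MSI tumour libraries lay below all 8 CIN tumour libraries. Pdgfrb and Cspg4 alone already separated the tumour types in this way, and Pecam1 averaged higher in MSI tumours. The separation of the ratios and their p-values thus largely repeat those results and are no independent support for a difference in pericyte coverage. Mcam was not set against Pecam1.

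The 2 ratios differed by -1.76 and -2.26 on the log2 scale (2-sided exact permutation of tumour type within each kind of DNA, 1296 arrangements, p = 0.00154 for each, the smallest they allow; 0.00231 after Benjamini-Hochberg adjustment over 3 ratios). The ratio of Rgs5 to Pecam1 was 0.18 ± 0.69 in MSI tumours and 0.45 ± 0.49 in CIN tumours. The difference of -0.27 was within the spread (exact permutation p = 0.397). In MSI tumours this ratio was split by library number. The 4 number 1 libraries, at -0.49 to -0.23, lay below every CIN tumour library (lowest -0.20). The number 2 libraries lay at 0.16 to 1.03. On the 11 libraries not rich in skeletal muscle transcripts the differences were -1.61 for Pdgfrb and -2.10 for Cspg4, where 27 arrangements allow no p under 0.037 (exact permutation, adjusted p = 0.0556 for each). Pecam1 alone was not called in the additive model on those 11 libraries (log2 fold change 0.39, edgeR adjusted p = 0.495).

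**Figure D3:**
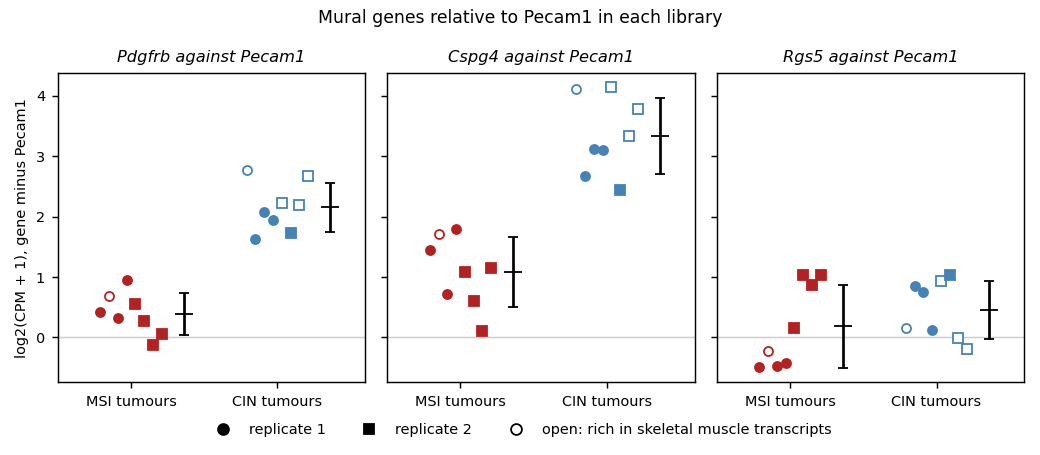
Difference of log2(CPM + 1) between Pdgfrb, Cspg4 or Rgs5 and Pecam1 in each library, MSI tumours left of CIN tumours; bars are mean ± SD, and open symbols are the 5 libraries rich in skeletal muscle transcripts. For Pdgfrb and Cspg4 the tumour types do not overlap, and for Rgs5 they do.

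Other genes of the PDGF pathway were read from 2 lists. Of 10 genes that process or bind PDGF ligands, 2 fell and 0 rose in MSI tumours, against 5.8% of all genes called. Their median log2 fold change was -0.16, and DESeq2 called 3, all lower, against 12.2% of all genes. Plat encodes tissue plasminogen activator, the protease that activates the latent PDGF-C dimer, and was at 14.5, 19.3 and 26.0 CPM in MSI tumours, against 42.2, 59.0 and 72.4 CPM in CIN tumours, without overlap (log2 fold change -1.54 ± 0.16, edgeR adjusted p = 5.72e-04). Furin encodes a proprotein convertase that cleaves PDGF-A and PDGF-B precursors, and was at 126, 151 and 173 CPM in MSI tumours, against 184, 240 and 270 CPM in CIN tumours, without overlap (log2 fold change -0.63 ± 0.10, edgeR adjusted p = 0.00529). Both calls held on leaving out each of the 16 libraries in turn. Of 22 genes that carry the receptors' signal, 1 rose and 0 fell, with a median log2 fold change of -0.02, and DESeq2 also called 1. The edgeR share of 4.55% was near that of all genes, 5.8%. The gene was Src, a cytoplasmic kinase recruited by activated receptors, at 164 ± 13.7 CPM in MSI tumours and 120 ± 6.21 CPM in CIN tumours (SD, n = 8 each; log2 fold change 0.45 ± 0.07, edgeR adjusted p = 0.00498).

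Of 18 other pericyte markers, 1 fell and 0 rose, a share of 5.56% near the 5.8% of all genes called. Positive fold changes were seen in 11, against 55.7% of all genes, and the median was 0.20 on the log2 scale. The count depended on the method: 6 had an unadjusted p under 0.05, against 22.1% of all genes. DESeq2 called 5, of which 3 were higher and 2 lower, against 12.2% of all genes. The calls ran from 0 to 5 over the alternatives. The gene that fell was Anpep, an aminopeptidase of pericytes that is also made by epithelium and myeloid cells (log2 fold change -0.54 ± 0.13, edgeR adjusted p = 0.0371), a call kept without 4 of the 16 libraries in turn and lost without each of the other 12. The potassium channel genes of pericytes did not pass: Kcnj8 had a log2 fold change of 1.03 ± 0.29 (edgeR adjusted p = 0.0637) and its partner Abcc9 one of 0.69 ± 0.22 (adjusted p = 0.102). Notch3, a receptor of mural cells, was at 0.05 ± 0.22 on the same scale (adjusted p = 0.895). Gja4 of this list was lower in MSI tumours without being called by edgeR. It was at 13.9 ± 4.27 CPM in MSI tumours and 22.0 ± 5.68 CPM in CIN tumours (SD, n = 8 each), with 6 of 8 MSI tumour libraries below every CIN tumour library. In all, 7 of the 18 markers had negative fold changes.

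Among the markers of neighbouring cells, 8 of 15 endothelial genes rose and 0 fell, against 5.8% of all genes called. Their median log2 fold change was 0.69, and DESeq2 called 10, all higher, against 12.2% of all genes. Of the 15, 14 had positive fold changes. Vwf was lower in MSI tumours without being called, at 8.59 ± 1.07 CPM, against 12.9 ± 4.29 CPM in CIN tumours (SD, n = 8 each), with overlapping ranges. The transcription factor gene Erg had a log2 fold change of 1.19 ± 0.25 (edgeR adjusted p = 0.0225), and Cdh5, which encodes the cadherin of endothelial junctions, one of 0.88 ± 0.19 (adjusted p = 0.0232). Tie1, an endothelial receptor kinase gene, was at 0.78 ± 0.15 and the secreted factor gene Egfl7 at 0.76 ± 0.15 (edgeR adjusted p = 0.0151 and 0.0153). Leaving out 1 library at a time kept the call of Erg in 8, of Cdh5 in 10, of Tie1 in 13 and of Egfl7 in 15 of 16 fits. In those fits 2 to 7 of the 15 endothelial genes were called, always fewer than the 8 with all libraries. In the additive model on the 11 libraries not rich in skeletal muscle transcripts 0 of 15 were called. That model called only 135 of 19383 genes in all. The summed level of the 15 genes was 228 to 319 CPM in MSI tumours and 152 to 264 CPM in CIN tumours. Its part in the changes of the PDGF genes was not tested beyond the ratios to Pecam1.

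Of 14 fibroblast genes 1 fell and 0 rose, a share of 7.14% against 5.8% of all genes called, with a median log2 fold change of -0.03. The gene that fell was the fibrillar collagen gene Col1a1 (-1.39 ± 0.12, edgeR adjusted p = 2.59e-04). Of the 14, 7 had an unadjusted p under 0.05, against 22.1% of all genes, and DESeq2 called 3, all lower, against 12.2% of all genes. Leaving out number 1 of the MSI tumours with CIN free DNA gave 4 calls and leaving out number 1 of those with CIN micronuclei 2, and leaving out any other library gave 1. None of 14 smooth muscle genes was called, although all 14 were positive with a median of 1.08, and their summed level was 678 to 6652 CPM in MSI tumours and 352 to 2499 CPM in CIN tumours. None of 10 macrophage genes (median log2 fold change 0.23), 9 tested genes of glia and neurons (0.93), 14 colon epithelium genes (0.93) and 10 tested skeletal muscle genes (-1.82) was called by edgeR. At an unadjusted p under 0.05 the counts in these lists were 1 of 14, 0 of 10, 0 of 9, 0 of 14 and 1 of 10, against 22.1% of all genes, and DESeq2 called 2 skeletal muscle genes, both lower, and none of the others. Of 8 platelet genes, looked at because platelets store PDGF, 6 were tested and none was called by edgeR (median log2 fold change -0.16), with 1 at an unadjusted p under 0.05 and 1 called by DESeq2. Their summed level was 26.7 to 47.2 CPM in MSI tumours and 31.4 to 46.1 CPM in CIN tumours, and Gp1bb, which encodes part of the platelet receptor for von Willebrand factor, was at 0 in all 16 libraries.

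**Figure D4:**
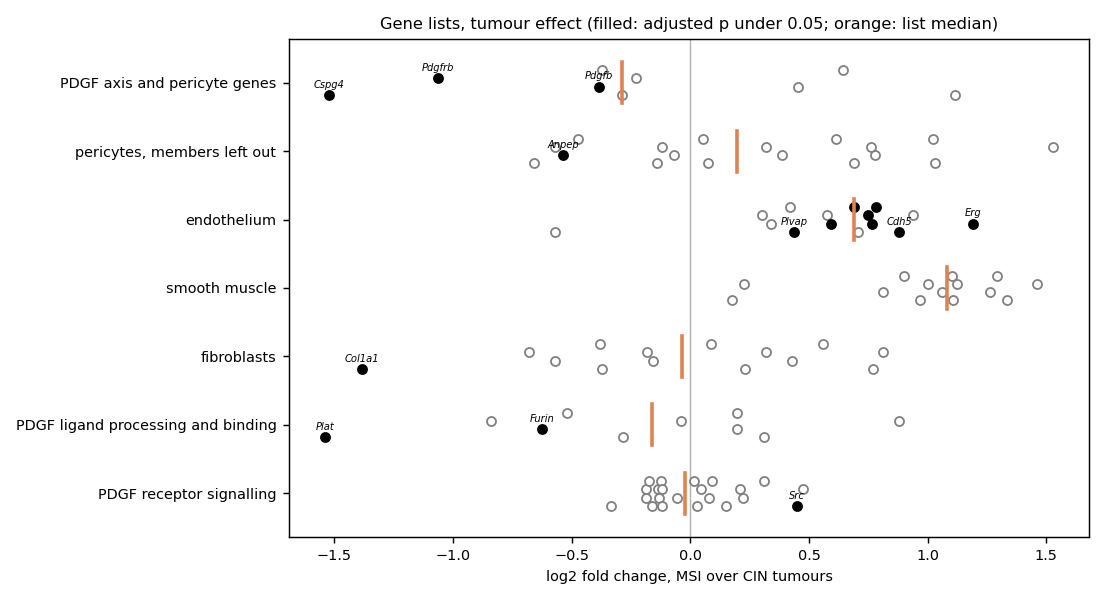
Log2 fold changes, MSI over CIN tumours, of the genes tested among the 9 PDGF axis and pericyte genes and in 6 other lists; filled points have an edgeR adjusted p under 0.05 and bars are medians. The endothelial list has 8 filled points on the higher side, and the filled members, Pdgfb, Pdgfrb and Cspg4, lie on the lower side.

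The remaining comparisons asked whether the DNA given to the dendritic cells moved these genes. It did not detectably do so: 0 of 9 passed edgeR's test for MSI over CIN DNA and 0 of 9 for free DNA over micronuclei, where 0% of all genes were called in each, and 0 of 9 had an unadjusted p under 0.05, against 1.11% of all genes for DNA source and 0.788% for DNA form. DESeq2 called 0 of 9 and 0% of all genes in each. Log2 fold changes ran from -0.23 to 0.15 for DNA source and from -0.22 to 0.10 for DNA form.

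The mean levels lay close together, beside a wide spread that included the difference between tumour types. Over both tumour types (SD, n = 8 each), Cspg4 averaged 198 ± 128 CPM where the DNA was MSI and 178 ± 89.0 CPM where it was CIN, and Pdgfrb averaged 88.4 ± 39.4 CPM with MSI DNA and 90.7 ± 39.8 CPM with CIN DNA. With free DNA Cspg4 averaged 183 ± 112 CPM, against 194 ± 109 CPM with micronuclei, and Pdgfrb 91.0 ± 44.7 CPM with free DNA, against 88.0 ± 33.7 CPM with micronuclei. How large a change these libraries could still hide differed between genes. The 95% interval of the log2 fold change for DNA source was -0.17 to 0.19 for Pdgfb and -0.56 to 0.52 for Cspg4, and it widened to -1.41 to 1.15 for Pdgfd.

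None of the 9 genes was called for an interaction of tumour type with DNA source or with DNA form, or of DNA source with DNA form, and 0%, 0% and 0% of all genes were. At an unadjusted p under 0.05 the counts were 0, 0 and 1 of 9, against 1.52%, 0.847% and 1.89% of all genes, and DESeq2 called 0 of 9 in each, against 0.0107%, 0% and 0.00533% of all genes. The 1 gene was Rgs5, for DNA source with DNA form (halved difference of log2 fold changes 0.68 ± 0.25, edgeR unadjusted p = 0.0222, adjusted p = 0.862). In CIN tumours Rgs5 was at 40.0 and 31.4 CPM with MSI free DNA, 22.1 and 35.7 CPM with MSI micronuclei, 33.3 and 18.4 CPM with CIN free DNA and 56.1 and 80.4 CPM with CIN micronuclei. Both of these libraries with MSI micronuclei and number 2 with either free DNA were rich in skeletal muscle transcripts, and neither with CIN micronuclei was. The part of muscle content in these Rgs5 values was not tested. In MSI tumours it was at 34.9 and 85.9 CPM with MSI free DNA, 31.8 and 47.8 CPM with MSI micronuclei, 31.6 and 58.3 CPM with CIN free DNA and 41.3 and 77.0 CPM with CIN micronuclei. In each MSI tumour group the number 2 library was the higher.

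Some of the 9 genes moved with the tissue in the library. In MSI tumours the mean log2 CPM of the colon epithelium list was 8.37 ± 0.30 in the number 2 libraries and 5.80 ± 1.35 in the number 1 libraries, and that of the smooth muscle list was 7.16 ± 0.54 in the number 2 libraries and 4.90 ± 0.45 in the number 1 libraries (SD, n = 4 each). Pdgfd and Rgs5 were higher in every one of those number 2 libraries than in any number 1 library, as given above. The MSI tumour libraries fell into separate clusters by number, so correlations were computed within the 8 CIN tumour libraries only, for the 9 genes with 5 lists, 45 relations in all.

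Pdgfd followed the colon epithelium list there (Pearson r = 0.96, exact permutation p = 1.24e-04, adjusted p = 0.00558; Spearman rho = 0.98, exact permutation p = 3.97e-04, adjusted p = 0.0179), and r was 0.90 without the 2 libraries farthest from the median. It also followed the smooth muscle list by r (Pearson r = 0.94, exact permutation p = 0.00221, adjusted p = 0.0497; Spearman rho = 0.88, exact permutation p = 0.00724, adjusted p = 0.109). That relation rested on 2 libraries, without which r was 0.63. None of the other 43 relations passed after adjustment. Among them, the pericyte-associated genes differed in direction against the list of 18 other pericyte markers. Pearson r was -0.75 for Cspg4, 0.01 for Pdgfrb, 0.46 for Mcam and 0.83 for Rgs5 (exact permutation, adjusted p = 0.152, 0.977, 0.398 and 0.0703). With the colon epithelium and smooth muscle lists as covariates over all 16 libraries, the log2 fold change between tumour types was 0.26 for Pdgfd and 0.07 for Rgs5, neither called. It was -1.41 for Cspg4, -0.88 for Pdgfrb and -0.39 for Pdgfb, all called by edgeR (adjusted p = 1.91e-04, 0.00167 and 0.0221).

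**Figure D5:**
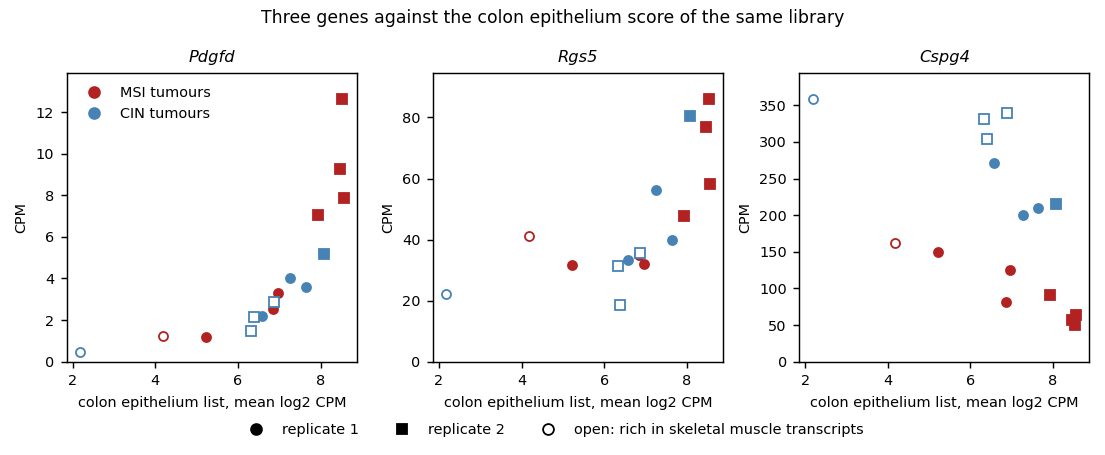
CPM of Pdgfd, Rgs5 and Cspg4 in each library against the mean log2 CPM of 14 colon epithelium genes, with MSI tumours and CIN tumours in separate colours. Pdgfd is highest, at 7.06 to 12.6 CPM, in the 4 number 2 libraries of MSI tumours, and Cspg4 separates the tumour types across the range of the colon list.

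The protein-coding genes whose log2 CPM followed each of the 9 most closely over the 16 libraries were sought among 12723 genes. Cspg4 was followed by Cngb1, Ank and Agfg1 (Pearson r = 0.99, 0.98 and 0.98), and Pdgfrb by Col6a2, which encodes a chain of collagen VI, Iqsec1 and Zfp358 (r = 0.97 for each). Pdgfb was followed by Sccpdh, Shf and Dis3l2 (r = 0.95, 0.94 and 0.94). The libraries share tumour type, so part of each r is the difference between MSI and CIN tumours: within the CIN tumours alone r with the first of these genes was 0.90 for Cspg4, 0.95 for Pdgfrb and 0.60 for Pdgfb.

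Genes without a called tumour difference had other company. Pdgfd was followed by Car1, a carbonic anhydrase of colon epithelium, Epas1 and Plcb4 (r = 0.99, 0.98 and 0.98), and Rgs5 by Gucy1a1, a subunit of the nitric oxide receptor of vascular smooth muscle and pericytes, Grk3 and Klhdc8b (r = 0.93, 0.93 and 0.92). Mcam was followed by the mast cell protease gene Cma1, Arhgef28 and Acyp2 (r = 0.94, 0.93 and 0.93), and Pdgfc by Lbx1, Lhx8 and Ctsl (r = 0.93 for each). The likenesses were lower for Pdgfra, with C1qtnf1, Sema4c and Zdhhc20 (r = 0.86, 0.81 and 0.80), and for Pdgfa, with Timm17a, Smad7 and Junb (r = 0.87, 0.86 and 0.85). Within the CIN tumours alone r with Pdgfa was 0.60, 0.40 and 0.21, and that of Zdhhc20 with Pdgfra 0.36. Within the MSI tumours alone the same relations had r of 0.83, 0.78, 0.86 and 0.91.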

How the data were processed

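The 9 genes and all lists were chosen with earlier results of these data known. The authors deposited read counts per gene and FPKM values, the counts divided by gene length and library total. Named in the submitters' processing notes are HISAT2 2.0.5, featureCounts 1.5.0-p3, fastp and the build GRCm39. Gene coordinates in the files equalled the GRCm38 ones of GENCODE M21 for 53585 of 54495 shared identifiers, so GRCm38 is used here. A strand setting of the counting was not given in the sources used here, while per the labels' protocols stranded and unstranded kits are both described. In each file, 4 columns matched no sample and were not used.

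The deposited counts were fitted with edgeR 4.0.16 under R 4.3.3 (TMM, filterByExpr by group, 1 mean per group, robust quasi-likelihood fits, 8 residual degrees of freedom). It tested 18777 genes at a Benjamini-Hochberg adjusted p under 0.05, and was tested on simulated data. The common biological coefficient of variation was 0.43. CPM use TMM factors; DNA effects are means over both tumour types, and interactions are halved. Ratios used a pseudocount of 1 CPM. The named genes are all 9 members, up to 4 called genes per list by size of change, and the 3 genes most like each member among those averaging 1 or more in log2 CPM. Pecam1, as the basis of the ratios, and Kcnj8, Abcc9, Notch3, Gja4, Vwf and Gp1bb were named in addition after their values were seen. DESeq2 1.42.0, other scalings, filters, models, a replicate block and leaving out libraries were the alternatives. The RefSeq promoter table matched 7 of the 9 genes.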

Additional observations from a re-analysis of the deposited data

How the results depend on the processing

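The 3 calls between tumour types were sensitive to the spread and number of libraries, while the sign of each member's tumour fold change did not turn under any of 24 alternatives. The additive model called 5 members and the model with smooth muscle and colon epithelium covariates 5, adding Pdgfa (adjusted p = 0.0418 and 0.0469) and Mcam (0.0306 and 0.0153). Both also called more of all 18777 genes, 1950 and 1532, against 1089 in the main fit. The additive model without libraries rich in skeletal muscle transcripts called 0 of 9, on 11 libraries, and only 135 of 19383 genes in all. Leaving out 1 library gave 1 to 4 calls: 1 without either library of the MSI tumours with MSI micronuclei, number 2 of the MSI tumours with MSI free DNA, or number 2 of the CIN tumours with CIN micronuclei or MSI free DNA. Genes called in all were 1089, from 477 to 1758 on leaving out 1 library and from 135 to 3428 over all the alternatives. Endothelial genes called ran from 0 to 11 over the alternatives. With no filter on low counts Pdgfb was not called (adjusted p = 0.0844). The ratios to Pecam1 without the rich libraries were -1.61 for Pdgfrb and -2.10 for Cspg4, not past the threshold. No member was called for DNA source, DNA form or an interaction under any alternative run.

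With the replicate number as a block 4 members were called, the same 3 and Mcam (adjusted p = 0.0362), as were 4 when the block was nested in tumour type (Mcam adjusted p = 0.0234). Of all 18777 genes, the block gave 1778 calls and the nested block 3428, against 1089 in the main fit. The block left the ratios of Pdgfrb and Cspg4 called (exact permutation p = 0.00781, the smallest of 256 arrangements). Deviations of libraries with the same number correlated at 0.40 to 0.80 within MSI tumours but at -0.33 to 0.38 within CIN tumours and at -0.54 to 0.65 between the tumour types compared, so the numbers were not taken to pair the samples of that comparison. Pdgfd, at under 13 CPM everywhere, had the lowest mean level of the members, and whether depth limited its result was not tested.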
